A study of Homo sapiens with 14 samples.

Results

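The amino acid transporters of the families SLC1, SLC7 and SLC38 were followed across 14 human neuroblastoma cell lines. Members were the gene symbols made of SLC1A, SLC7A or SLC38A and a number, which gave 29 of the 20049 symbols measured: SLC1A1 to SLC1A7, SLC7A1 to SLC7A11 with SLC7A14, and SLC38A1 to SLC38A7 with SLC38A9, SLC38A10 and SLC38A11. Total RNA was sequenced from SH-SY5Y, SK-N-SH, SK-N-FI, SK-N-DZ, SK-N-BE(2)C, SK-N-AS, NGP, NBL-S, LS, Lan-6, IMR5-75, IMR32, GI-ME-N and CLB-GA, each an established culture kept in serum-containing medium (RPMI1640 or DMEM, with no statement of which line had which). No line was treated, none had a replicate, and no label set a line apart, so the study's interest in telomere damage and PD-L1 blockade has no arm of its own among these libraries. From textbook knowledge, IMR5-75 is a subclone of IMR32 and SH-SY5Y one of SK-N-SH, and both derived lines were left out of tests across lines.

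Transporters of these families move amino acids across the plasma membrane or the lysosomal membrane. SLC1 members carry glutamate or exchange small neutral amino acids, and SLC7 members either carry cationic amino acids alone or are light chains that need a heavy chain, SLC3A2 (CD98) or SLC3A1, to reach the surface. SLC38 members take up glutamine, alanine and other neutral amino acids with sodium (systems A and N) or act at the lysosome. Neuroblastoma cells, many of which amplify the transcription factor gene MYCN, are known for heavy use of glutamine and for cystine uptake through SLC7A11, which feeds glutathione synthesis. The E-box CACGTG is bound by MYC proteins, and TGATGCAA is a composite element bound by the C/EBP and ATF proteins that answer amino acid shortage.

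Promoters of 23 members, 38 in all, were found in the RefSeq table (GRCh38.p14), and 4 are printed here because 3 of these members, SLC38A5, SLC7A5 and SLC1A5, were set against MYCN below. Each run covers 250 bases upstream of an annotated start, read 5′ to 3′ on the gene's own minus strand, with the matched motif in capitals. CACGTG lay at position -206 from the start for SLC38A5, at -130 for SLC7A5 and at -50 for 1 start of SLC1A5, and TGATGCAA at -97 for another start of SLC1A5. Both starts of SLC1A5 lie inside the gene (chromosome 19, 46774883 to 46788594, in GENCODE 29 on GRCh38), downstream of its first start, whose promoter held none of the motifs.
SLC38A5, chrX:48470261-48470510: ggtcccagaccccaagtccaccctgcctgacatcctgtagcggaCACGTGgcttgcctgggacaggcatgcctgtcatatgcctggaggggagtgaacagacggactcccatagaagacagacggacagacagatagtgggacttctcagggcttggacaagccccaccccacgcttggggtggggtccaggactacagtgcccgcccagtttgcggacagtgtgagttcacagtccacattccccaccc
SLC7A5, chr16:87869508-87869757: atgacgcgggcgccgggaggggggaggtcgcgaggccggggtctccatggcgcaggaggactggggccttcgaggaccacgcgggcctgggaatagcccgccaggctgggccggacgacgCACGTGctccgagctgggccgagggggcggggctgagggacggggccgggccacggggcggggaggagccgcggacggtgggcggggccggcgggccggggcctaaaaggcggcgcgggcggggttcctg
SLC1A5, chr19:46787294-46787543: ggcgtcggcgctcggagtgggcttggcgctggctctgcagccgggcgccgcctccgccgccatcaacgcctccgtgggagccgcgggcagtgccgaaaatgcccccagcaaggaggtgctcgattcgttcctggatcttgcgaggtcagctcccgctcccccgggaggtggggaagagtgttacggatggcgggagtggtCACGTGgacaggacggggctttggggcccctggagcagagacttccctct
SLC1A5, chr19:46784815-46785064: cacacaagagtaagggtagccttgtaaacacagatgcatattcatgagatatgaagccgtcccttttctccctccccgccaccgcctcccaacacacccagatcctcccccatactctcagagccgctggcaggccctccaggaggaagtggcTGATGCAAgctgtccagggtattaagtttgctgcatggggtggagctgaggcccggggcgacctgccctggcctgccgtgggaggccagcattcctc

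Windows of 300 bases, which add 50 bases downstream of the start, were searched on both strands. CACGTG, which reads the same on both, occurred in 7 of the 38 member promoters, against 7.26% of all 35116 promoters: those of SLC1A5, SLC1A7, SLC38A5, SLC38A7, SLC7A5, SLC7A7 and SLC7A8. TGATGCAA occurred in 3 member promoters (SLC1A3, SLC1A4 and SLC1A5) and in 0.866% of all promoters. TGATGNAA, which includes every TGATGCAA, occurred in 5 member promoters (those 3, SLC38A1 and SLC7A1) and in 3.62% of all. Several promoters of 1 gene share their locus, and a match is a description of letters, not of binding.

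Levels are given in CPM, a gene's counts relative to the size of its library after TMM scaling. The libraries held 35856642 (Lan-6) to 58644013 (LS) counts, and where a gene has no count its level may still be as high as 3 counts give, 0.0514 to 0.102 CPM depending on the line. That limit and the intervals printed for single values cover counting error only. Long transcripts were low in Lan-6 and GI-ME-N (Spearman's rho of relative level against length, across 12486 genes, -0.406 and -0.276, against -0.125 to 0.217 in the other lines), and GC-rich transcripts were high in Lan-6 (rho 0.574). Values after removal of each library's GC and length trend are therefore given beside named member levels, class shares and test results that they move by over 1.5 times. The neuroblastoma marker HAND2 was at 111 CPM or more in every line. SK-N-AS held 470 CPM of PTPRC, the leukocyte marker CD45 (next 2.91 CPM). CD3E was at 0 and CD14 at 0.189 CPM there, but CD68 was at 17.5 CPM, above its median of 4.90. The 6 leukocyte markers summed to 487 CPM in SK-N-AS, of which PTPRC made 470. Elsewhere they summed to 4.96 to 47.7 CPM, the highest in SK-N-SH, where CD68 made 46.9.

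Of the 29 members, 14 were at 1 CPM or more in all 14 lines, against 52.8% of all symbols: SLC1A4, SLC1A5, SLC1A6, SLC7A1, SLC7A2, SLC7A5, SLC7A6, SLC7A11, SLC38A1, SLC38A2, SLC38A6, SLC38A7, SLC38A9 and SLC38A10. SLC7A3 and SLC7A10 stayed under 1 CPM in all lines, against 12.7% of all symbols. The other members crossed 1 CPM in some lines only. The SD of log2 CPM over the 12 lines had a median of 1.34 in the 28 members tested and 0.87 in the 18303 genes tested. The heat map of all members shows a block of SLC38A1, SLC38A2, SLC1A5, SLC7A1 and SLC7A5 that was high throughout, beside members present in 1 or a few lines.

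**Figure D1:**
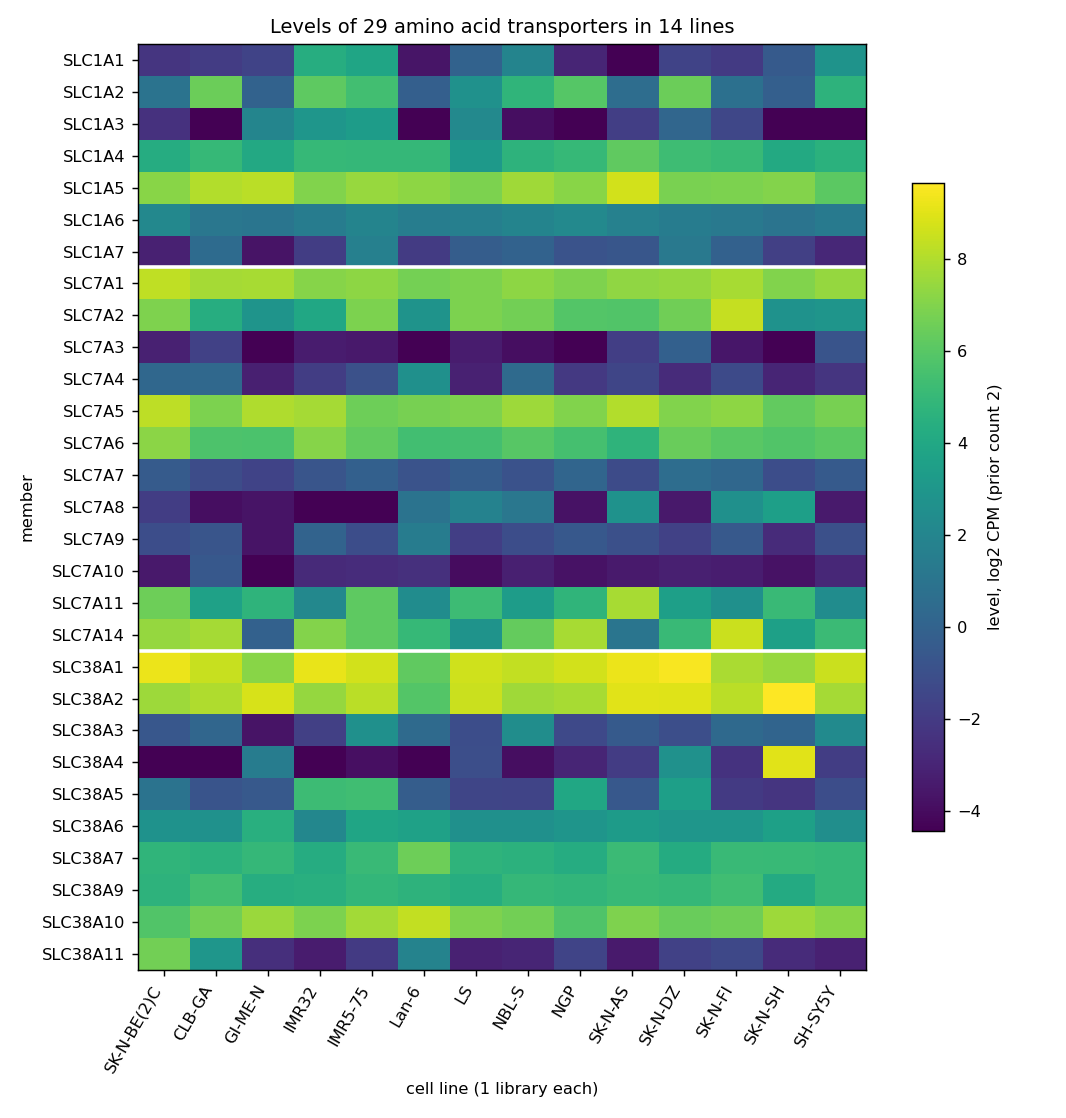
Levels of the 29 members (rows, ordered by family, families parted by white lines) in the 14 lines (columns, 1 library each), as log2 CPM with a prior count of 2, from dark (low) to yellow (high). SLC38A4 in SK-N-SH (514 CPM) and SLC38A11 in SK-N-BE(2)C (101.5 CPM) are bright cells in rows that are otherwise dark.

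Levels of different genes were compared per kilobase of the principal coding transcript. On that scale SLC1A5 ranked first among the members in 4 lines, SLC38A2 in 4, SLC38A1 in 3 and SLC38A10 in 3. With the GC and length trend removed, SLC1A5, SLC38A2 and SLC38A10 ranked first in 4 lines each, and SLC38A1 and SLC38A11 in 1 each. With the union of all exons as the length, SLC1A5 ranked first in 7 lines, SLC38A1 and SLC38A2 in 2 each, SLC38A4, SLC7A2 and SLC7A5 in 1 each and SLC38A10 in none (0), so the first rank depended on both choices. The 29 members summed from 262 CPM per kilobase in SH-SY5Y to 527.5 in SK-N-AS, with SK-N-SH at 517. Lan-6 was lowest with the trend removed (222.9, SH-SY5Y 251.5) and with union lengths (180.7, SH-SY5Y 184.6), and SK-N-AS stayed highest in both.

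System A (SLC38A1, SLC38A2 and SLC38A4) held a median of 29.4% of that sum, from 7.21% in Lan-6 (21.3% there with the library's trend removed) to 62.4% in SK-N-SH. The neutral exchangers SLC1A4 and SLC1A5 held 15.8% (lowest 9.50% in SK-N-SH, highest 30.5% in SK-N-AS), and the SLC7 light chains 13.2% (lowest 6.28% in SK-N-SH, highest 22.3% in SK-N-BE(2)C). The cationic branch of SLC7 held 10.5% (lowest 3.68% in SK-N-SH, highest 31.1% in SK-N-FI). The glutamate carriers held 1.57% (0.287% in SK-N-SH to 4.28% in IMR32), and system N 0.225% (0.0624% in GI-ME-N to 4.30% in IMR5-75). The other SLC38 members held 18.2%, or 8.88% with union lengths, and up to 53.3% in Lan-6, which became 39.2% there with the library's trend removed. Shares sum to a fixed total, so a high share of 1 class lowers the others in the same line.

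**Figure D2:**
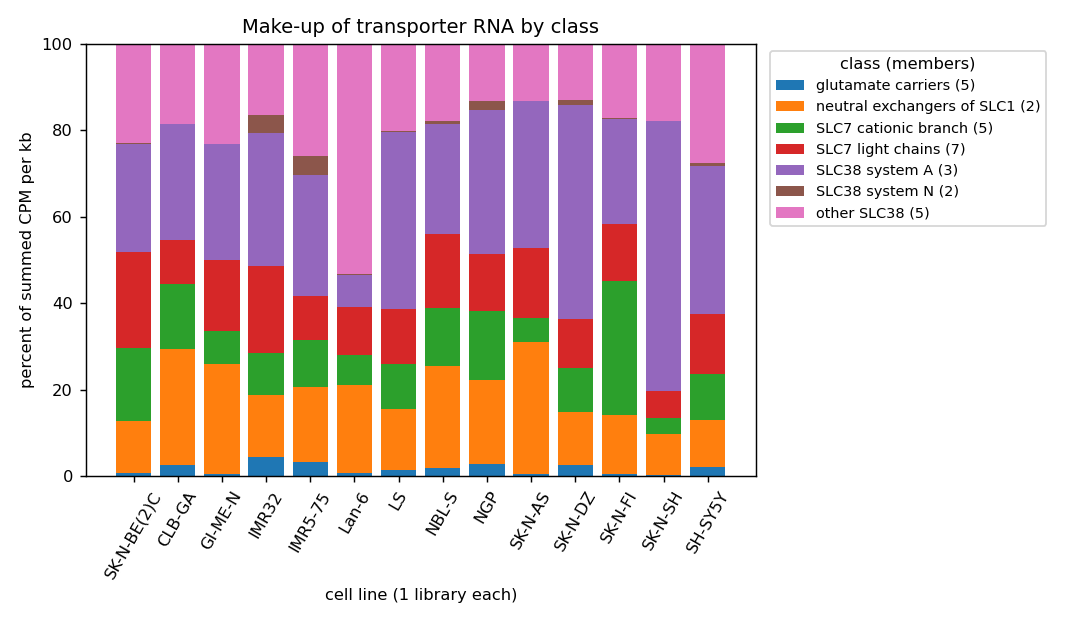
Share of the summed CPM per kilobase of the 29 members taken by each of 7 transporter classes (stacked bars, linear axis from 0) in each of the 14 lines, 1 library each. System A takes 62.4% in SK-N-SH, the cationic branch of SLC7 31.1% in SK-N-FI, and the other SLC38 members 53.3% in Lan-6.

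Among the glutamate carriers, SLC1A2 (EAAT2, the main astroglial carrier, chromosome 11) ran from 0.847 CPM in Lan-6 through a median of 16 to 90.9 CPM in CLB-GA. With the trend removed Lan-6 was at 1.87 CPM and SK-N-SH was lowest at 1.08. SK-N-DZ was at 90.6 CPM, and its 95% Poisson interval of 87.9 to 93.4 overlapped that of CLB-GA (88.2 to 93.6). IMR32 (71.2 CPM), NGP (61.6) and IMR5-75 (41.9) followed, and 6 lines (GI-ME-N, Lan-6, SK-N-AS, SK-N-BE(2)C, SK-N-FI and SK-N-SH) lay between 0.847 and 1.87 CPM. The 6 astrocyte markers did not share this order: they summed to 9.99 CPM in CLB-GA and 14.3 in SK-N-DZ, within a range of 3.44 (GI-ME-N) to 97.2 CPM (SK-N-SH, of which GJA1 made 90.8), and GFAP stayed between 0.399 and 4.53 CPM in all lines.

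SLC1A1 (EAAT3, the neuronal carrier) was at 20.1 CPM in IMR32, 14.5 in IMR5-75, 6.97 in SH-SY5Y and 3.75 in NBL-S. Its median was 0.278 CPM, and SK-N-AS had no count. SLC1A3 (EAAT1, another glial carrier) had no count in 5 lines (CLB-GA, Lan-6, NGP, SK-N-SH and SH-SY5Y) and reached 9.99 CPM in IMR5-75 and 7.89 in IMR32. SLC1A6 (EAAT4) ran from 1.95 CPM in SK-N-SH through 2.79 to 4.57 in NGP, and with the trend removed from 1.12 in Lan-6 to 5.47 in NGP. SLC1A7 (EAAT5) ran from 0.0310 CPM in GI-ME-N through 0.551 to 3.19 in IMR5-75. Per kilobase, SLC1A6 led the glutamate carriers in 7 lines, SLC1A2 in 6 and SLC1A1 in 1. With union lengths SLC1A3 led in GI-ME-N (0.618 CPM per kilobase against 0.268 for SLC1A6) and LS (0.711 against 0.399). SLC1A1 then also led in IMR32 (5.04 against 3.12 for SLC1A2) and SH-SY5Y (1.745 against 1.117), so these leads depended on the length chosen.

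SLC1A5 (ASCT2, which exchanges glutamine for other neutral amino acids) was present in every line, from 67.7 CPM in SH-SY5Y through 143 to 418 in SK-N-AS, followed by GI-ME-N (287) and CLB-GA (256). SLC1A4 (ASCT1, which prefers serine and alanine) ran from 8.67 CPM in LS through 31.3 to 73.0, again in SK-N-AS. SLC1A5 exceeded SLC1A4 per kilobase in 14 of 14 lines. The level of PTPRC given above moved with SK-N-AS in both cases, and its part in these values was not tested.

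In the cationic branch, SLC7A1 (CAT1, the widespread carrier of arginine and lysine) varied little, from 105 CPM in Lan-6 through 156 to 310 in SK-N-BE(2)C. SLC7A2 (CAT2, a second arginine carrier) ran from 6.59 CPM in SK-N-SH through 57.4 to 345 in SK-N-FI, 2.88-fold above the next line, SK-N-BE(2)C at 120. SLC7A14 (a lysosomal member expressed in neurons) ran from 0.899 CPM in GI-ME-N and 1.98 in SK-N-AS through 53.6 to 365 in SK-N-FI, with NGP at 227 and CLB-GA at 216. SK-N-FI was thus the highest line for both. SLC7A1 led the branch per kilobase in 12 lines, SLC7A2 in SK-N-FI and SLC7A14 in NGP. SLC7A3 (CAT3) reached 0.876 CPM in SK-N-DZ and 0.528 in SH-SY5Y, with no count in 4 lines. SLC7A4, a member with no established substrate, was highest in Lan-6 at 6.10 CPM, or 2.515 with that library's trend removed. P2RX6, which overlaps SLC7A4 on the opposite strand, was also highest in Lan-6 (38.1 CPM), and whether counting used strand is not given in the sources used here.

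Of the light chains, SLC7A5 (LAT1, the leucine and large neutral amino acid exchanger) ran from 76.5 CPM in SK-N-SH through 127 to 301 in SK-N-BE(2)C, and with the trend removed its lowest line was Lan-6 at 64.1. SLC7A6 (y+LAT2, which exchanges arginine for neutral amino acids) ran from 26.4 CPM in SK-N-AS through 59.8 to 148, again in SK-N-BE(2)C. SLC7A11 (xCT, the cystine and glutamate exchanger, chromosome 4) ran from 4.42 CPM in IMR32 through 19.5 to 220.5 in SK-N-AS. SK-N-BE(2)C followed at 91.9 CPM and IMR5-75 at 71.2, and no other line exceeded 37.0 CPM (43.75 in GI-ME-N with the trend removed). Each of these top 3 levels lay outside the 95% Poisson interval of the next (216 to 225, 89.1 to 94.8 and 68.7 to 73.7 CPM).

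SLC7A8 (LAT2) had no count in IMR32 and IMR5-75, a median of 0.137 CPM, and its highest levels in SK-N-SH (11.4), SK-N-AS (6.73) and SK-N-FI (6.25). SLC7A7 (y+LAT1) stayed between 0.279 and 1.475 CPM, SLC7A9 (the light chain of SLC3A1 in kidney and gut) between 0.0310 and 2.75 (in Lan-6, 1.76 with the trend removed), and SLC7A10 (Asc-1) at or under 0.6335. SLC7A5 led the light chains per kilobase in 14 of 14 lines. The pseudogene copies SLC7A5P1 and SLC7A5P2, between which reads of SLC7A5 could be split, held at most 0.973 and 1.73 CPM. The shared heavy chain SLC3A2 ran from 64.3 CPM in SH-SY5Y through 110 to 242 in GI-ME-N and 234 in SK-N-AS. With the trend removed GI-ME-N was at 174 CPM and SK-N-AS was highest at 232. The other heavy chain, SLC3A1, ran from 0.378 CPM through 0.666 to 2.77 in NGP.

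The system A carriers SLC38A1 and SLC38A2 (SNAT1 and SNAT2, both sodium-coupled glutamine and alanine carriers) lie beside SLC38A4 on chromosome 12. SLC38A1 ran from 75.4 CPM in Lan-6 (166 with that library's trend removed) through 379 to 728 in SK-N-DZ. SLC38A2 ran from 59.4 CPM in Lan-6 (132 with the trend removed) through 269 to 803 in SK-N-SH. Per kilobase SLC38A2 led system A in 10 lines and SLC38A1 in IMR32, NGP, SK-N-BE(2)C and SH-SY5Y. With union lengths SLC38A4 passed SLC38A2 in SK-N-SH (124.1 against 121.7 CPM per kilobase) and SLC38A1 passed it in NBL-S (32.1 against 30.7).

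SLC38A4 (SNAT4, an imprinted liver and placenta carrier in the mouse, positions 46764761 to 46832408 on the minus strand) was at 514 CPM in SK-N-SH, from 18742 counts. SK-N-DZ was next at 6.39 CPM, then GI-ME-N at 2.73 and LS at 0.428. The remaining 10 lines lay at or under 0.229 CPM, and 4 of them (SK-N-BE(2)C, CLB-GA, IMR32 and Lan-6) had no count. SK-N-SH exceeded SK-N-DZ 80.5-fold. Of its neighbours in SK-N-SH, SLC38A2 stood at 803 CPM, above the highest other line (513.5), and SLC38A1 at 181 CPM, below the median of 392.5 in the other 13 lines.

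SLC38A11, a little-studied member on chromosome 2, showed the same kind of distribution. SK-N-BE(2)C was at 101.5 CPM, 13.2-fold above CLB-GA (7.69), followed by Lan-6 at 3.66, and the remaining 11 lines lay between 0.0472 and 0.343 CPM. SLC38A4 and SLC38A11 were the 2 members of 29 with a highest line at least 10-fold above the next, against 1.65% of 19319 genes. Of the genes beside SLC38A11 in SK-N-BE(2)C, CSRNP3 stood at 72.75 CPM (highest other line 60.6), SCN3A at 54.4 (highest other line 74.4), SCN2A at 36.6 and COBLL1 at 16.9 (medians of the other lines 22.6 and 8.48). FIGN, at 4.10 CPM, and GRB14, at 0.114, lay below the medians of the other lines (35.2 and 3.56).

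In system N, SLC38A5 (SNAT5, a glutamine carrier on the X chromosome that works in both directions) was high in 4 lines: IMR5-75 (39.7 CPM), IMR32 (37.0), NGP (15.6) and SK-N-DZ (11.4). The Poisson intervals of the first pair overlapped (37.9 to 41.6 and 35.2 to 38.9). All other lines lay between 0.165 (SK-N-SH) and 1.87 CPM (SK-N-BE(2)C). SLC38A3 (SNAT3) reached 6.25 CPM in IMR5-75, 5.41 in NBL-S and 4.98 in SH-SY5Y, around a median of 0.864. Per kilobase the lead was split, with SLC38A3 and SLC38A5 ahead in 7 lines each. With union lengths SLC38A3 was also ahead in SK-N-AS (0.1725 against 0.1588 CPM per kilobase).

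The remaining SLC38 members varied less. SLC38A9, the lysosomal arginine sensor that signals to mTORC1, stayed between 17.7 CPM in SK-N-SH and 42.4 in CLB-GA around a median of 29.2. SLC38A7 (a lysosomal glutamine carrier) ran from 19.1 CPM in SK-N-DZ through 28.9 to 94.6 in Lan-6 (68.5 with the trend removed). SLC38A10 ran from 54.4 CPM in NGP through 118 to 325 in Lan-6. With the trend removed Lan-6 was at 130 CPM and IMR5-75 was highest at 239, so the Lan-6 peak of SLC38A10 does not hold on that scale. SLC38A6 ran from 4.12 CPM in IMR32 through 7.57 to 21.5 in GI-ME-N.

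**Figure D3:**
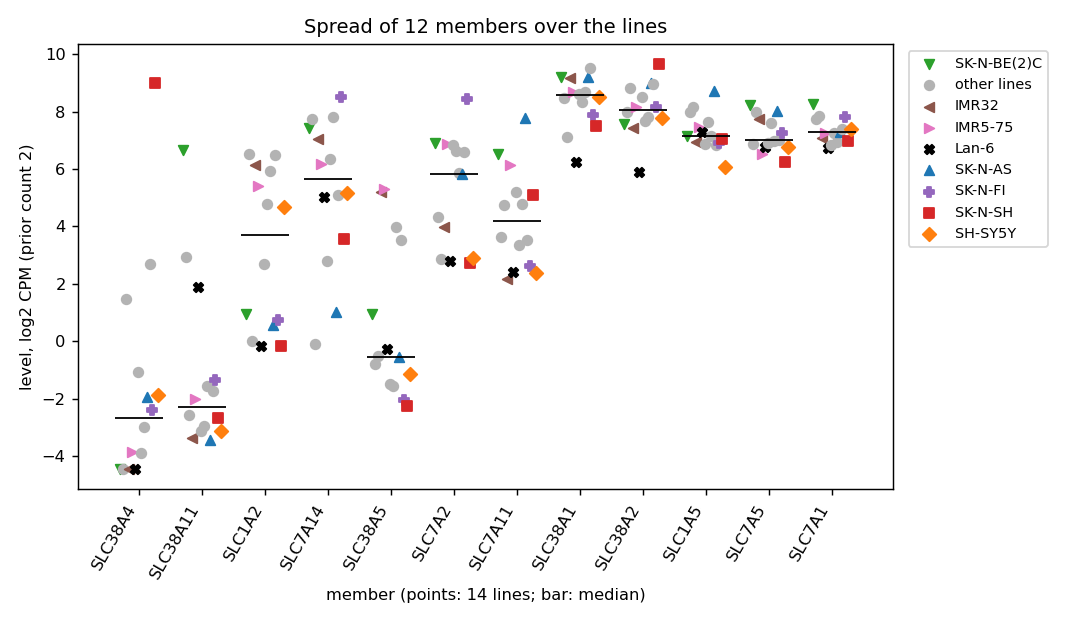
Levels of 12 members (x axis) in the 14 lines (points, 8 lines coloured, bar at the median), as log2 CPM with a prior count of 2. SLC38A4 and SLC38A11 each have 1 line far above the rest, SLC1A2 and SLC38A5 have several high lines and several low ones, and SLC7A1 lies in a narrow band.

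Genes whose levels followed those of the 5 most variable members with a mean of at least 5 CPM were ranked by Pearson's r of log2 CPM over the 12 lines, as a description. For SLC1A2 they were KCTD8 (r = 0.97), TMEM196 (0.97) and CTNND2 (0.96), each of which kept an r of at least 0.957 without CLB-GA, the highest line. For SLC7A14 they were STMN4 (0.96), SYT11 (0.93) and SCN3A (0.93), with an r of at least 0.92 without SK-N-FI. For SLC38A4 the r of STEAP2 went from 0.953 to 0.86 without SK-N-SH, that of CTGF from 0.92 to 0.79 and that of FBXO6 from 0.917 to 0.735. For SLC38A5 the nearest were PGA4 (0.949), ADGRF5P1 (0.91) and PTPN5 (0.889), and for SLC38A11 MYH7B (0.848), LSG1 (0.845) and CA10 (0.842). Without IMR32 the 3 values for SLC38A5 were 0.922, 0.854 and 0.845, and without SK-N-BE(2)C those for SLC38A11 were 0.671, 0.772 and 0.78. The lines share no library, but 3 genes out of the whole table were picked for each member, so high values are given by the ranking itself.

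The first test asked which members followed MYCN, whose level ran from 0.384 CPM (SK-N-SH) to 2250 CPM (SK-N-BE(2)C). Slopes are in log2 per SD of the level, from edgeR's quasi-likelihood test over 12 lines with Benjamini-Hochberg adjustment over all genes tested. None of the 28 members tested (0) passed an adjusted p of 0.05 in either direction, against 1.08% of 18302 genes rising and 2.39% falling. At an unadjusted p of 0.05, 6 members had positive slopes and 5 negative ones, against 10.5% and 14.4% of all genes. The median slope was 0.05 in the members and -0.01 in all genes. DESeq2's Wald test called 7 members (SLC1A2, SLC7A14, SLC38A5 and SLC38A11 upward, SLC1A5, SLC38A6 and SLC38A10 downward) against 7.9% of all genes rising and 9.96% falling in that test. On the deposited log2 values limma called 0, against 1.1% and 0.978%.

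SLC38A5 had the lowest p among the members, with a slope of 2.11 (SE 0.59, edgeR adjusted p = 0.065). NGP, IMR32 and SK-N-DZ, with MYCN at 1180, 1440 and 1210 CPM, were among its high lines, but SK-N-BE(2)C, the highest for MYCN, was at 1.87 CPM and LS, with MYCN at 949 CPM, at 0.308. Its adjusted p ran from 0.00122 (DESeq2) to 0.157 over the alternatives, and was 0.0393 with all 14 lines in edgeR, IMR5-75 among them. SLC38A10 had a slope of -0.52 (SE 0.18, edgeR adjusted p = 0.103), which became -0.26 with the GC and length trend removed. SLC38A4 had a slope of -2.86 (SE 0.98, edgeR adjusted p = 0.104), which became 0.20 without SK-N-SH. SLC38A1 was called by edgeR without SK-N-AS (slope 0.76, adjusted p = 0.0297) and SLC1A2 without CLB-GA (2.50, adjusted p = 0.0429), so those libraries decided whether a member passed.

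The second test used a mesenchymal score, the mean centred log2 CPM of 15 markers such as VIM and FN1. It was highest in SK-N-SH (5.71) and GI-ME-N (4.53), then LS (1.21). Of these lines the first pair was low for MYCN (log2 CPM -1.22 and 0.46), while LS was high (9.89). All 15 markers had negative slopes on MYCN in edgeR, 9 of them at an unadjusted p of 0.05, against 14.4% of all genes. The first and second tests thus overlap. No fit held both levels, so whether slopes on MYCN, here and below, reflect the mesenchymal score was not tested. SLC38A4 rose with this score at a slope of 3.35 (SE 0.71, edgeR adjusted p = 0.0161). It was the 1 member of 28 that passed upward, against 3.48% of 18288 genes, and none (0) passed downward, against 2.16%. Unadjusted, 3 members passed upward and 5 downward, against 9.6% and 10.4% of genes. The call rested on SK-N-SH: without that line the slope was 0.79 (adjusted p = 0.751), and with SH-SY5Y and IMR5-75 in place of their parent lines it was 0.70 (adjusted p = 0.738). Over all alternatives that gave a value the adjusted p ran from 0.000182 to 0.751. Without both SK-N-SH and GI-ME-N, SLC38A4 had too few counts to be tested.

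SLC38A2 had a slope of 0.63 on the score (SE 0.19, edgeR adjusted p = 0.0779) and passed with the GC and length trend removed (0.65, adjusted p = 0.0146), without Lan-6 (0.55, adjusted p = 0.0392) and without SK-N-DZ (0.72, adjusted p = 0.0416). SLC7A4 (-1.77, adjusted p = 0.0569) passed downward with the trend removed (-1.60, adjusted p = 0.0307) and without Lan-6 (-1.38, adjusted p = 0.0392), and SLC38A10 passed upward without Lan-6 (0.42, adjusted p = 0.0472), all in edgeR. DESeq2 called 2 members upward and 7 downward, against 6.17% and 9.31% of all genes. On the deposited log2 values limma called SLC38A4 upward and SLC7A14 downward (-1.48, adjusted p = 0.0208), against 2.88% and 2.39% of all genes. Among the 15 adrenergic markers, 5 fell with the same score in edgeR and none (0) rose, against 2.16% and 3.48% of all genes. At an unadjusted p of 0.05, 11 of these markers had negative slopes and 0 positive ones, against 10.4% and 9.6% of genes. Both lines at the top of the score had negative length trends (rho -0.125 in SK-N-SH and -0.276 in GI-ME-N), and the slope of SLC38A4 was 3.31 with that trend removed.

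The third test used an amino acid response score over 18 genes such as ASNS (asparagine synthetase), CHAC1 and TRIB3, the genes that cells induce when amino acids run short. It was highest in SK-N-AS (1.36) and SK-N-BE(2)C (1.22) and lowest in SK-N-DZ (-0.75). ASNS was at 580 CPM in SK-N-AS against a median of 85.9. None of the members (0) passed in edgeR, against 0.0109% of 18285 genes rising and 0% falling. At an unadjusted p of 0.05 there were 3 members with positive slopes and 0 with negative ones, against 2.03% and 2.36% of genes. They were SLC7A11 (1.21, SE 0.26, adjusted p = 0.325), SLC38A11 (1.96, SE 0.71, adjusted p = 0.973) and SLC7A5 (0.34, SE 0.15, adjusted p = 0.973). SLC7A11 was the 1 member that DESeq2 called (1.21, adjusted p = 0.0239, within a range of 0.0239 to 1.0 over the alternatives), against 0.361% of all genes rising and 0.662% falling in DESeq2, and limma called 0 members and 0% of genes. Without SK-N-AS and SK-N-BE(2)C the slope of SLC7A11 was 0.18, and without SK-N-BE(2)C alone that of SLC38A11 was -1.66.

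**Figure D4:**
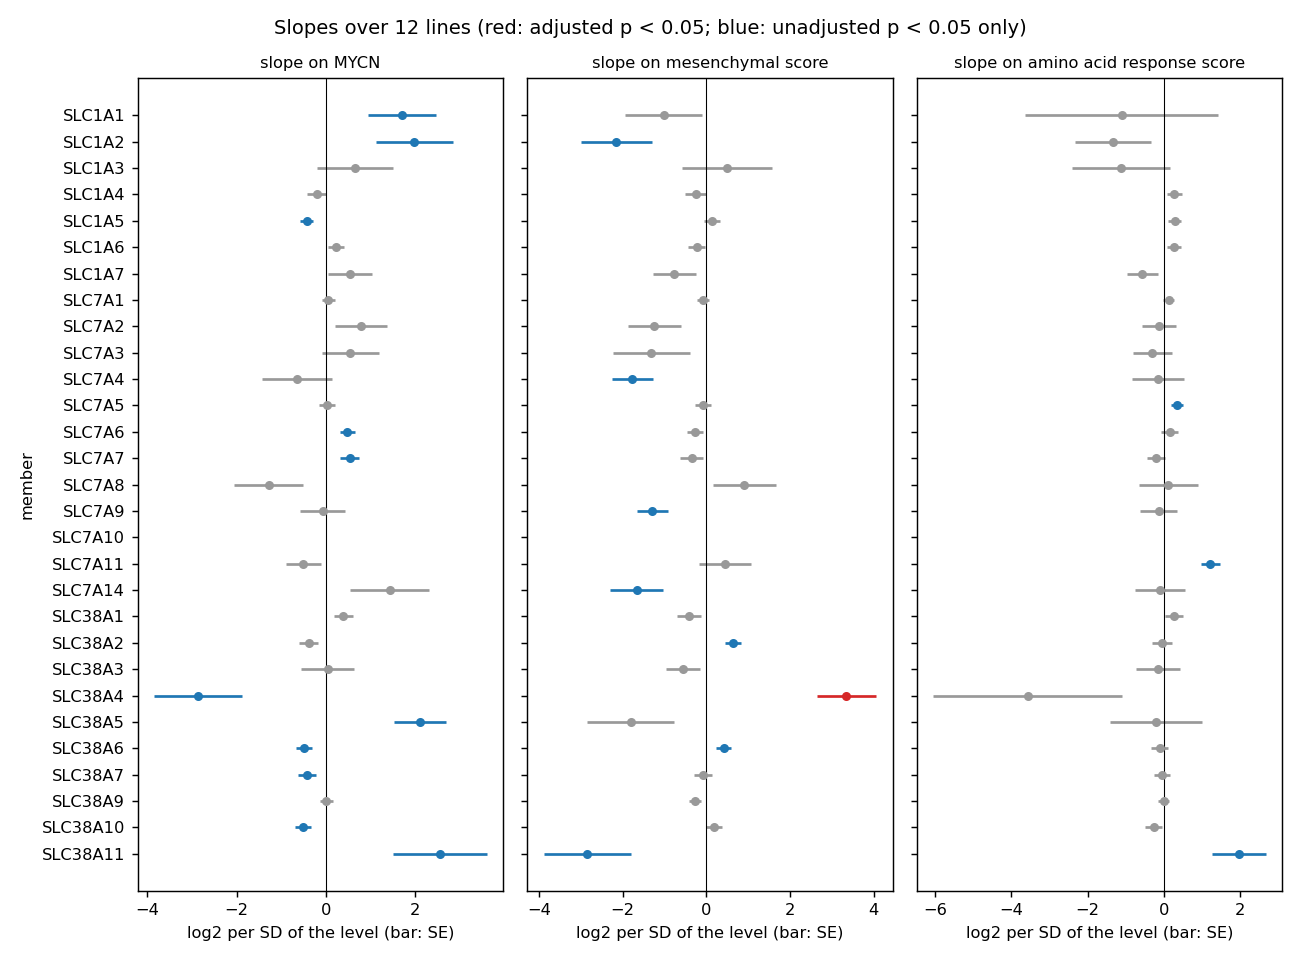
Slopes of the members (rows) on MYCN, the mesenchymal score and the amino acid response score (panels, separate linear axes), in log2 per SD of the level over 12 lines, with bars of 1 SE, and SLC7A10 left blank because it was not tested. SLC38A4 on the mesenchymal score (3.35) is the red point, past an adjusted p of 0.05 in edgeR, and blue points passed only unadjusted.

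Sensitivity of these tests was limited. On simulated counts, slopes of 2 were recovered in 68% (MYCN), 88% (mesenchymal score) and 78% (response score) of genes, and slopes of 1 in 14%, 50% and 24%. Slopes of -1 were recovered in 12% (MYCN), 22% (mesenchymal score) and 12% (response score). A member that was not called may therefore still have a slope of 1 or -1.

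Partner chains and a few regulators were examined in 6 relations over the 12 lines, as Pearson's r beside Spearman's rho, both with 2-sided permutation tests adjusted over the 6. SLC7A5 and its heavy chain SLC3A2 gave r = 0.587 (permutation p = 0.0451, adjusted p = 0.0902), and a rank correlation rho of 0.455 (permutation p = 0.14, adjusted p = 0.351). The same pair gave r = 0.851 (permutation adjusted p = 0.00186) with the GC and length trend removed, 0.691 (permutation adjusted p = 0.0463) without Lan-6, and 0.288 without GI-ME-N and SK-N-AS, the lines farthest from the median of SLC3A2, and thus rested in part on those lines. SLC7A11 and SLC3A2 gave r = 0.347 (permutation p = 0.271, adjusted p = 0.325), and a rank correlation rho of 0.035 (permutation p = 0.921, adjusted p = 0.921). With the trend removed that r was 0.578, and it was -0.28 without GI-ME-N and SK-N-AS.

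SLC7A11 against the amino acid response score gave r = 0.753 (permutation p = 0.00549, adjusted p = 0.0329), but a rank correlation rho of 0.42 (permutation p = 0.175, adjusted p = 0.351). It rested on SK-N-AS and SK-N-BE(2)C, without which r was 0.111 (permutation p = 0.764). Leaving out SK-N-AS (r = 0.574), SK-N-BE(2)C (0.696), SK-N-FI (0.734) or NGP (0.751) ended the call. Among the 10 remaining lines SLC7A11 still ran from 4.42 CPM in IMR32 to 37.0 in LS. SK-N-AS was also the line with 470 CPM of PTPRC, whose part was not tested.

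SLC1A5 against MYCN gave r = -0.607 (permutation p = 0.0339, adjusted p = 0.0902), and a rank correlation rho of -0.517 (permutation p = 0.0896, adjusted p = 0.351). It was -0.70 (unadjusted permutation p = 0.0231) without SK-N-SH and SK-N-AS, and -0.811 (permutation adjusted p = 0.0173) without SK-N-SH alone. It was -0.253 (permutation adjusted p = 0.431) with the GC and length trend removed, so its size depends on that trend. SLC7A5 against MYCN gave r = 0.133 (permutation p = 0.675, adjusted p = 0.675), and a rank correlation rho of 0.329 (permutation p = 0.297, adjusted p = 0.411), and r was 0.0618 without SK-N-SH and SK-N-AS and 0.254 with the trend removed. SLC1A5 against SLC7A5 gave r = 0.442 (permutation p = 0.151, adjusted p = 0.227), and a rank correlation rho of 0.301 (permutation p = 0.343, adjusted p = 0.411), and 0.391 without SK-N-BE(2)C and SK-N-AS.

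**Figure D5:**
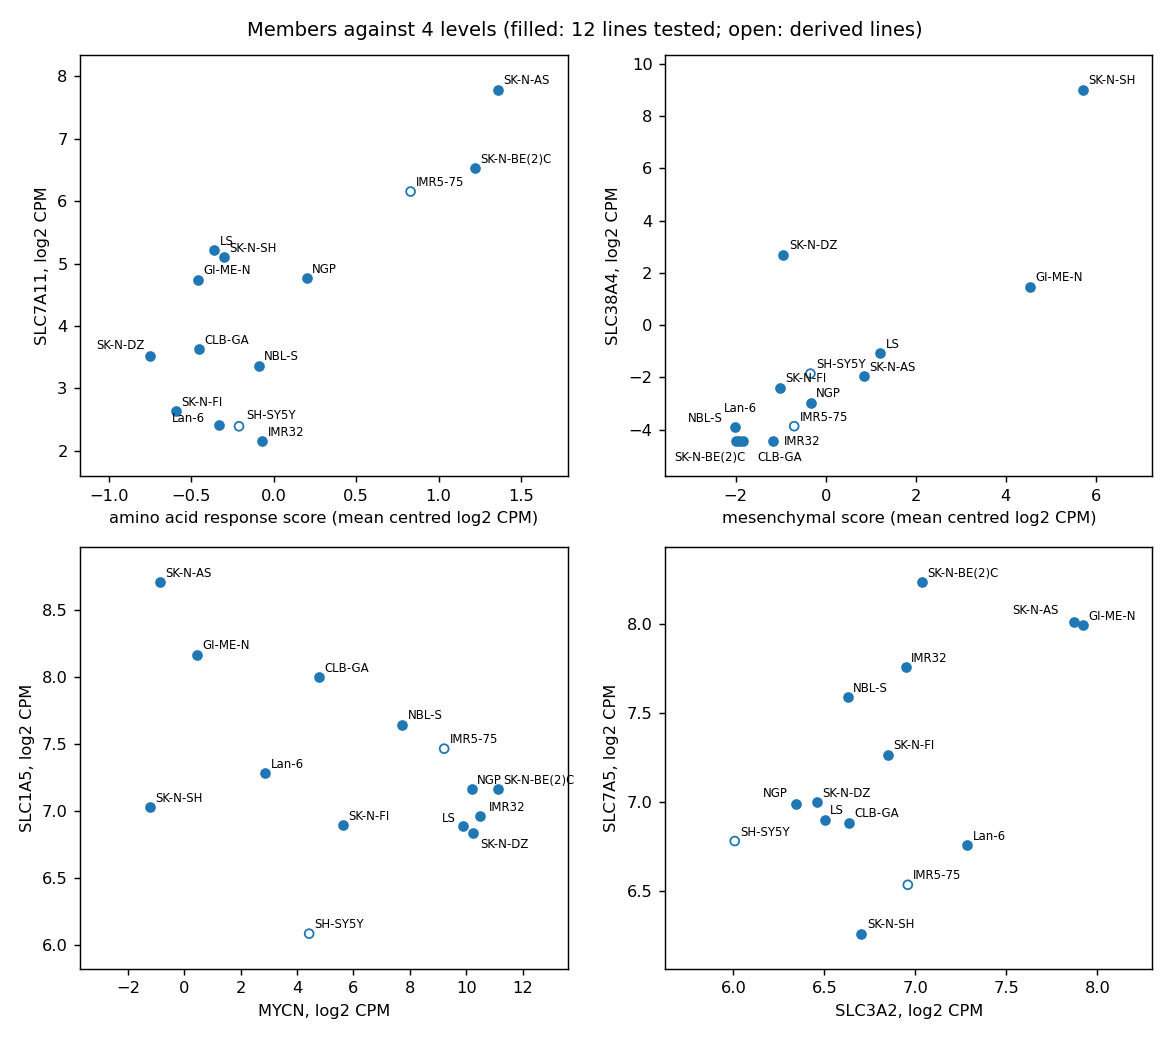
Levels of SLC7A11, SLC38A4, SLC1A5 and SLC7A5 (y axes, log2 CPM) in each line against the amino acid response score, the mesenchymal score, MYCN and SLC3A2 (x axes), with filled points for the 12 lines tested and open points for the 2 derived lines. SLC7A11 is high where the response score is above 0.8 and has no clear order below it (r = 0.111 once SK-N-AS and SK-N-BE(2)C are left out), and the slope of SLC38A4 is set by SK-N-SH.

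Of 15 partner and other amino acid transporters, 1 passed on MYCN in edgeR: SLC16A10 (TAT1, an aromatic amino acid carrier) rose with a slope of 1.45 (SE 0.33, adjusted p = 0.0389), against 1.08% of all genes rising, from 0.961 CPM in SK-N-SH through 10.1 to 44.9 in SK-N-DZ. In edgeR 0 genes rose with MYCN when derived lines took the place of parents, and 0 without IMR32, so SLC16A10 was not called in either setting. None (0) of the 15 fell with MYCN, and none passed on the other scores, while DESeq2 and limma counts were not made for this list. At an unadjusted p of 0.05, 4 of the 15 had positive slopes and 3 negative ones on MYCN, against 10.5% and 14.4% of all genes, 0 and 0 on the mesenchymal score (9.6% and 10.4% of genes), and 1 and 1 on the response score (2.03% and 2.36%). SLC3A2 had a slope of -0.36 on MYCN (SE 0.13, edgeR adjusted p = 0.117). SLC6A9 (GlyT1, a glycine carrier) shared its highest line, SK-N-AS at 66.7 CPM around a median of 4.95, with SLC1A4, SLC1A5 and SLC7A11.

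Among 16 genes of amino acid sensing at the lysosome, RRAGC (a Rag GTPase that recruits mTORC1) fell with MYCN (slope -0.57, SE 0.14, edgeR adjusted p = 0.0428), against 2.39% of all genes falling, and none (0) rose. With derived lines in place of parents 0 genes fell with MYCN in edgeR, so RRAGC was not called there. At an unadjusted p of 0.05, 2 of the 16 had positive slopes and 5 negative ones on MYCN, 1 and 2 on the mesenchymal score, and 0 and 0 on the response score, against the same shares of all genes as for the partner list. None of the 14 enzymes of glutamine and glutathione metabolism passed on any of the 3 levels in edgeR, with 1 positive and 2 negative slopes on MYCN at an unadjusted p of 0.05 and 0 in either direction on the others. GCLM, which with GCLC makes the first step of glutathione synthesis, ran from 5.73 CPM in Lan-6 through 23.4 to 51.2 in LS. The GC and length trend, strongest in Lan-6, was not removed from these GCLM levels.

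The derived lines were set beside their parents as 1 library against 1, with no test. SH-SY5Y and SK-N-SH differed most in SLC38A4, with 10 counts (0.229 CPM, 95% Poisson interval 0.110 to 0.422) against 18742 counts (514 CPM, 507 to 522), a 2242-fold difference. SLC7A8 was at 2 counts in SH-SY5Y against 416 in SK-N-SH, and SLC7A11 at 5.21 against 34.4 CPM. SLC38A2 was at 218 against 803 CPM, and SLC38A1 at 366 against 181. In the other direction SLC1A2 was at 25.5 against 0.851 CPM, SLC1A1 at 6.97 against 0.686, SLC38A3 at 4.98 against 1.04, SLC7A9 at 20 counts against 4, and SLC7A3 at 23 counts against 0. At 4-fold or more, 5 members were higher in SH-SY5Y and 3 lower, out of 24 with enough counts, against 9.95% and 9.42% of 17434 genes. The mesenchymal score was 5.71 in SK-N-SH and -0.34 in SH-SY5Y.

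IMR5-75 exceeded IMR32 in SLC7A11 (71.2 against 4.42 CPM, 16.1-fold), SLC38A3 (6.25 against 0.2495), SLC1A7 (3.19 against 0.225) and SLC7A2 (116 against 15.6, 7.44-fold). These were 4 members higher by 4-fold or more and 0 lower, out of 24, against 7.44% and 5.99% of 17694 genes. SLC7A5 was at 92.7 CPM in IMR5-75 and 216 in IMR32, whereas SLC38A5, SLC1A2 and SLC3A2 were within 1.70-fold of each other in the pair. The response score was -0.07 in IMR32 and 0.83 in IMR5-75, with ASNS at 83.4 and 324 CPM. MYCN was at 1440 CPM in IMR32 and 598 in IMR5-75.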

How the data were processed

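Per the labels' protocols, TRIzol was used to extract RNA and the TruSeq protocol to build 1 library per line. GRCh38, kallisto 0.44.0 and DESeq2 1.48.2 appear in the submitters' processing notes, with no role stated. Going by kallisto in those notes and by whole-number values, the authors deposited rounded estimated counts (expected counts per gene, not scaled) for 20049 symbols. That unit and the absence of scaling were inferred, and no source used here states either. A table of log2 values called variance-stabilised was also deposited and used only as an alternative scale. No source used here gives the strand setting, annotation or filters.

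CPM used TMM factors (edgeR 4.0.16, R 4.3.3), and log2 CPM a prior count of 2. Tests across lines used the 12 lines other than SH-SY5Y and IMR5-75 and genes with at least 10 counts in at least 3 lines, each slope fitted with edgeR's quasi-likelihood test, with the genes that form a level left out. With 1 library per line, a p-value reflects biological and technical spread between lines together. Relations used permutation tests with 100000 resamples (scipy 1.17.1). Lengths and positions came from GENCODE 29, in which 19850 symbols (99%) matched. The GC and length trend of each library was fitted over genes averaging 5 CPM or more by splines with 4 df. Alternatives were DESeq2 1.42.0, its size factors, limma 3.58.1, other filters, prior counts, lengths and sets of lines. The choice of transporter classes and the fits without Lan-6 and GI-ME-N were added after seeing the data.

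The members, lists and tests were chosen with earlier results of these data known. Named were all members, SLC3A2 and SLC3A1, genes of the lists, per test the called members or the 3 with the lowest p, and the 3 genes most like each of the 5 most variable members. Genes beside SLC38A4 and SLC38A11 were looked at after their values were seen. On simulated counts, genes with no slope were called in 0.0112% (MYCN), 0.0056% (mesenchymal score) and 0% (response score). SLC1A1, SLC1A5, SLC38A6, SLC38A9, SLC7A4, SLC7A6, SLC7A10 and SLC7A14 overlap a gene on the opposite strand, and reads of the pair could be shared if counting ignored strand. Schwann cell markers summed to 4.25 to 20.6 CPM and endothelial markers to 1.12 to 10.7 CPM. Protein sequences were not used here. Some items of the lists are not reported here.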

Additional observations from a re-analysis of the deposited data

How the results depend on the processing

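For MYCN (634 genes, 197 rising and 437 falling), DESeq2 gave 3268 genes (1445 and 1823), limma 380 (201 and 179), all 14 lines 1281, derived lines in place of parents 0, omission of SK-N-SH and SK-N-AS 1438, and omission of Lan-6 and GI-ME-N 170. Leaving out 1 line gave 4 (IMR32) to 1544 (SK-N-AS) genes. Members called for MYCN (0) became 7 with DESeq2, 1 with all 14 lines and 1 without the 2 farthest lines, and 0 to 1 without single lines. For the mesenchymal score (1031 genes, 636 rising and 395 falling), DESeq2 gave 2831 (1128 and 1703), derived lines 554, omission of SK-N-SH and GI-ME-N 12, omission of Lan-6 and GI-ME-N 501, and omission of single lines 398 (GI-ME-N) to 1551 (Lan-6). Members called for that score (1) became 9 with DESeq2, 2 with limma, 4 with all 14 lines, 3 with the GC and length trend removed, 0 with derived lines and 0 without the 2 farthest lines, and 0 (SK-N-SH) to 4 (Lan-6) without single lines. For the response score (2 genes), DESeq2 gave 187 genes and 1 member, no filter 9 genes, all 14 lines 4, derived lines 1, omission of Lan-6 and GI-ME-N 1, and limma, trend removal and omission of SK-N-AS and SK-N-BE(2)C 0 each, with 0 to 6 (SK-N-BE(2)C) without single lines.

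The slope of SLC38A4 on MYCN (-2.86) reversed to 0.25 with derived lines, 0.026 without SK-N-SH and SK-N-AS, and 0.197 without SK-N-SH, within a range of -4.49 to 0.197 without single lines. The slope of SLC38A11 on the response score (1.96) reversed to -1.17 without SK-N-AS and SK-N-BE(2)C and to -1.66 without the latter, within -1.66 to 2.60 without single lines. Among relations, SLC7A5 with SLC3A2 (0.587) passed with the trend removed (0.851) and ran from 0.494 to 0.691 without single lines. SLC7A11 with the response score (0.753) ran from 0.574 to 0.818, and was 0.111 without its 2 farthest lines. SLC1A5 with MYCN (-0.607) ran from -0.811 to -0.452, and was -0.70 without its 2 farthest lines. SLC7A5 with MYCN (0.133) ran from -0.173 to 0.366, being -0.0424 without SK-N-BE(2)C. SLC7A11 with SLC3A2 (0.347) ran from -0.0276 to 0.462, and was -0.28 without its 2 farthest lines. The cause of each of these changes was not tested. With DESeq2's size factors in edgeR, all 6 counts kept within 1.5 times and the 7 slopes of named members kept their direction and their side of the threshold.

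Each line is 1 library, so no difference between single lines has a replicate check, and members at or under 0.102 CPM could not be told from a count of 0 at this depth. No paired analysis was possible because each line is 1 library of 1 group.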

Other observations

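SESN3, a stress-induced inhibitor of mTORC1, ran from 3.78 CPM in GI-ME-N through a median of 85.6 to 517.5 in IMR5-75. RRAGD, a Rag GTPase, ran from 0.0930 CPM in GI-ME-N through 14.5 to 50.4, again in IMR5-75. CASTOR1, the cytosolic arginine sensor, ran from 0.411 CPM in LS through 1.91 to 15.8 in Lan-6, and its slope on MYCN was -1.30 (SE 0.38, edgeR adjusted p = 0.0715). MTOR itself ran from 39.3 CPM in Lan-6 through 113 to 186 in IMR5-75. IMR5-75 was thus the highest line for SESN3, RRAGD and MTOR as well as for SLC38A5, SLC38A3, SLC1A3 and SLC1A7 among the transporters. For SLC38A5 the Poisson intervals of IMR5-75 and IMR32 overlapped. These genes were picked after their values were seen, and the share of all genes highest in IMR5-75 was not computed. Levels of SESN3, RRAGD, CASTOR1 and MTOR are given without removal of the GC and length trend, which was strongest in Lan-6.

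Of the redox enzymes downstream of cystine uptake, TXNRD1 (thioredoxin reductase) ran from 50.5 CPM in Lan-6 through 207 to 580 in SK-N-SH, and GPX4, which protects membrane lipids from peroxidation, from 67.3 CPM in NBL-S through 101 to 466 in Lan-6. Neither was highest in SK-N-AS, where SLC7A11 was. Lan-6 was the lowest or the highest line for 12 of the 14 enzymes of the glutamine and glutathione list. The same held for 5 of the 15 partner and other transporters, 5 of the 16 lysosomal sensing genes and 2 of the 18 amino acid response genes. The share over all genes was not computed. Lan-6 is also the library in which long transcripts were low and GC-rich ones high, and the part of that trend in these counts was not tested.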
